A study of Homo sapiens with 60 samples.

Results

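The 48 genes described here encode the machinery that takes a cell from G2 through mitosis to the separation of the daughter cells: the cyclins and kinases that start mitosis, the kinetochore and spindle checkpoint, the mitotic motors, the spindle and the cytokinetic ring. They were chosen by name, with earlier results of these data known, and matched to 1 identifier each among the 60675 genes of the deposited count table. All 48 passed the filter on low counts, as did 17676 genes in all. The cells were SW1783, an established human astrocytoma line grown in culture. They were harvested 24 h after an extract or its dimethyl sulfoxide (DMSO) vehicle was added. Per the sample labels, all extracts were ethanol extracts. The vehicle and 18 extract groups had 3 libraries each, and Rehmanniae Radix Preparata had 1 library per dose. Of the replicated extracts, 2 come from a single herb, Cinnamomi Cortex from cinnamon bark and Astragali Radix from the root of astragalus. The other 4 are mixed formulas: Samul-tang, Sagunja-tang, Palmul-tang (whose recipe combines the herbs of both) and Sibjeondaebo-tang (Palmul-tang with Cinnamomi Cortex and Astragali Radix added). The doses, named high, medium and low here, were 500, 100 and 20 µg/mL, except for Astragali Radix with 220, 44 and 8.8 µg/mL. The sample labels give 0.1% DMSO for the vehicle, the series text gives another percentage, and no untreated cells without DMSO were analysed here. The series text also states that an extract with an IC20 below the usual top dose was started from that IC20, so doses of Astragali Radix and of the other extracts are not matched by mass. No label says whether the 3 libraries of a group came from separate cultures, so each p-value measures the spread between libraries.

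Genes of this set are made in a wave late in the cell cycle. DREAM, a repressor complex, holds many of them off in resting cells and early in the cycle, and the activators MYBL2 and FOXM1 switch them on as cells approach mitosis. Dividing tumour cell cultures therefore carry their transcripts at a level that follows, among other things, the share of cells in G2 and mitosis. In a bulk library, fewer cells in that phase and less of these RNAs per cell cannot be told apart.

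Total expected counts per library ran from 19793387 to 37152410. Levels are in CPM, counts scaled to the normalised library total, and a change is the log2 ratio of 2 group means, with its standard error (SE), from edgeR. A gene was called when its Benjamini-Hochberg adjusted p over all 17676 genes was below 0.05, with no minimum fold. The astrocyte label of the line was checked against markers: GFAP, AQP4 and S100B were at 0.124, 0 and 0.0945 CPM on average in the vehicle, whereas VIM, CD44 and SOX9 were at 5528, 2957 and 81.8 CPM, so the defining markers of mature astrocytes were at or near 0. Markers of T cells (CD3E), oligodendrocytes (MOG), epithelium (EPCAM) and endothelium (CDH5) were at 0, 0, 0.0269 and 0.0138 CPM. 2 facts on the libraries touch the results below. Replicates 1 and 2 of the low dose of Astragali Radix stood apart from all other libraries outside the high dose of that extract, with deviations over genes of 0.638 and 0.867 (SD, log2) where replicate 3 had 0.284, and because all groups shared 1 estimate of the spread, counts are also given without them. In the fit to all groups, every SE and adjusted p draws on that estimate, also where no Astragali Radix library is compared. All libraries share 1 batch label, but the vehicle descriptions also carry a code, of unstated meaning, found on no extract library, so extract and code cannot be told apart against the vehicle, while the high and low dose of an extract share a code.

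Promoter sequences are shown because genes of this wave are known to carry CCAAT boxes, which bind the factor NF-Y, and the cell cycle homology region (CHR), usually written TTTGAA, through which DREAM and the MYBL2 complex reach DNA. Each line below gives the 150 bases before the start of the gene in RefSeq (GRCh38.p14), 5′ to 3′ on the gene's strand, with CCAAT and TTTGAA or TTCGAA on either strand in capitals. The genes are 4 with both elements, then KIF18B, with CCAAT alone and one of the largest changes reported below. The last is MYBL2, with neither and the smallest change. Other members also held neither in the 250 bases before the start. At the high dose of Astragali Radix they changed by -3.41 (CENPE), -2.31 (NDC80), -1.71 (NUF2), -1.36 (CDC25B), -1.27 (KIF2C) and -1.14 (CDC25C).
PLK1: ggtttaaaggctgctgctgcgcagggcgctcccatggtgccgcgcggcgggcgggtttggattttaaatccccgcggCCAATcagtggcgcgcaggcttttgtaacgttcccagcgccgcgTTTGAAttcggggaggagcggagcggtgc
CCNB2: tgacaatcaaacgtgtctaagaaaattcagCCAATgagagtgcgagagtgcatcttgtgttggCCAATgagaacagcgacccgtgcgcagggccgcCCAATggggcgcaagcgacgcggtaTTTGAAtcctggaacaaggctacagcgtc
CDCA8: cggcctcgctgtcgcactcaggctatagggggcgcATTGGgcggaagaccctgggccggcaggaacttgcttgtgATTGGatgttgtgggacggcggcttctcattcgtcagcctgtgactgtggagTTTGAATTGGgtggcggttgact
MKI67: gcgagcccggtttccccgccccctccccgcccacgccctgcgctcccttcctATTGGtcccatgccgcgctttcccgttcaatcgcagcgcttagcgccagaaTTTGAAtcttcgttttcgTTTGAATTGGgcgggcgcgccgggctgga
KIF18B: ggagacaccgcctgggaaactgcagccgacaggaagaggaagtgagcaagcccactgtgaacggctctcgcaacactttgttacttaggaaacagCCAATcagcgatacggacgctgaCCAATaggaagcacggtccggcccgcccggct
MYBL2: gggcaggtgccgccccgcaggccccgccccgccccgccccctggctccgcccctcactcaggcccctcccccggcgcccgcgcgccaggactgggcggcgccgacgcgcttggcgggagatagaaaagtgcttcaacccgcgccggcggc
The stretches lie at chr16:23678739-23678888 (plus strand) for PLK1, chr15:59104996-59105145 (plus strand) for CCNB2, chr1:37692366-37692515 (plus strand) for CDCA8, chr10:128126424-128126573 (minus strand) for MKI67, chr17:44947774-44947923 (minus strand) for KIF18B and chr20:43666964-43667113 (plus strand) for MYBL2. In PLK1 and CCNB2 the TTTGAA begins 29 bases before the start, and in CDCA8 23 bases before it.

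Of the 48 genes, 41 had an entry in the RefSeq promoter table. Within 250 bases before the start, 32 of the 41 (78.0%) held CCAAT on either strand, against 32.0% of all 35116 promoters of the table. TTTGAA was in 21 of the 41 (51.2%) against 13.3% of all promoters, and TTCGAA was in none against 1.19%. Both CCAAT and one of the CHR spellings stood in 19 (46.3%) against 5.05%. CCAAT occurred at least 2 times in 22 (53.7%) against 9.53%, where overlapping copies on opposite strands count separately. These are matches of letters, not measured binding.

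Summed over the 48 genes, the level was 6046, 5938 and 5864 CPM in the 3 vehicle libraries (5949 ± 91.8 CPM, SD, n = 3). It was 2344, 2146 and 1894 CPM at the high dose of Astragali Radix (2128 ± 225), below every other library of the series. At the high dose of Palmul-tang it was 4422 ± 77.6 CPM and at that of Sibjeondaebo-tang 4536 ± 87.7 CPM. The high doses of Samul-tang and Sagunja-tang stood at 4835 ± 39.6 and 4861 ± 52.6 CPM. Cinnamomi Cortex at its high dose stood at 5257 ± 40.3 CPM, among the medium and low doses of the 6 replicated extracts, whose means ran from 5059 to 5418 CPM. No extract library reached the lowest vehicle library.

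**Figure D1:**
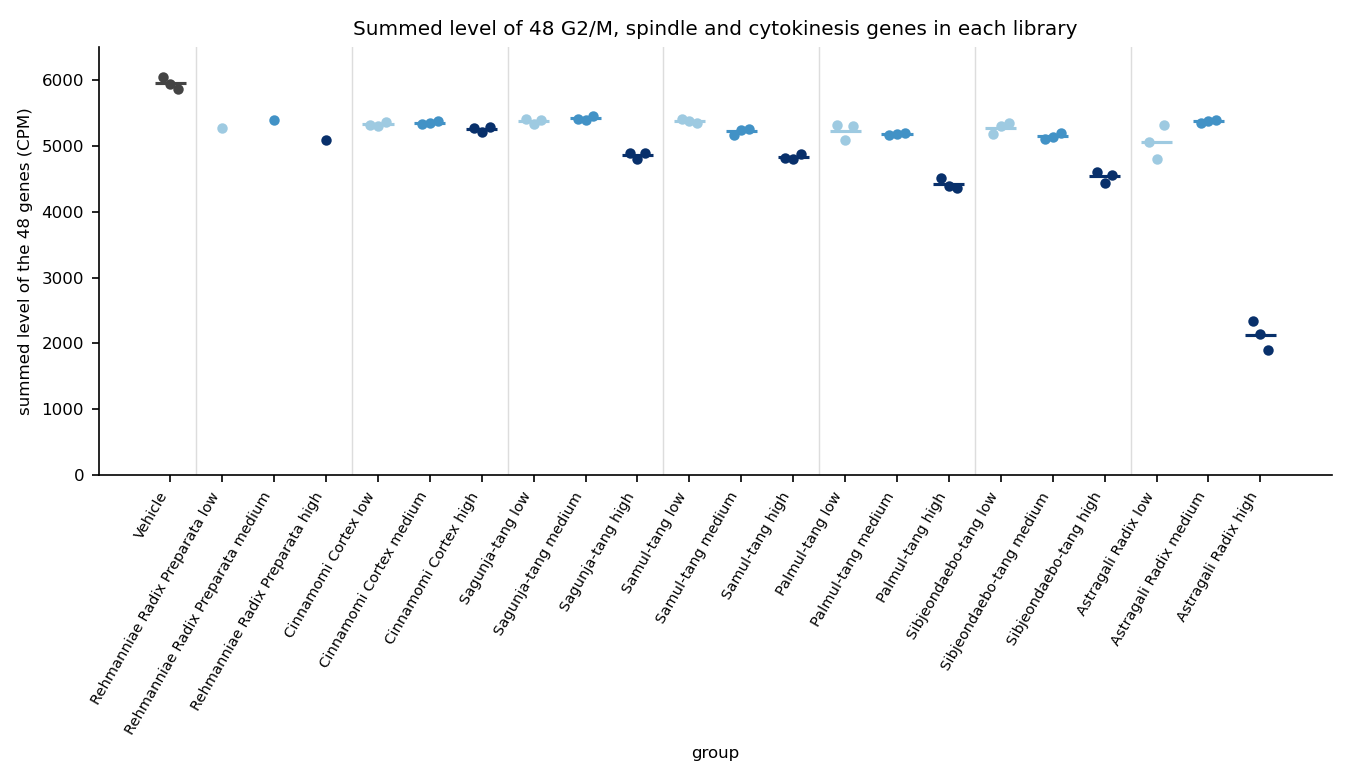
Summed level of the 48 genes (CPM, vertical axis) in each library, by group; points are libraries and lines the means of 3, with 1 point per dose for Rehmanniae Radix Preparata. The vehicle libraries lie at 6046, 5938 and 5864 CPM, those of the high dose of Astragali Radix at 2344, 2146 and 1894 CPM.

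At the high dose of Astragali Radix, 47 of the 48 genes were lower than in the vehicle and called (edgeR quasi-likelihood, Benjamini-Hochberg), where 35.6% of all genes tested were called lower. The median change was -1.81 on the log2 scale against -0.06 over all genes tested. In all 47 the 3 treated libraries lay below the 3 vehicle libraries, and in 38 the mean was lower by a log2 of at least 1. The shares of all genes that met these conditions are not given here, so these counts alone do not set the members apart. The largest changes were in MKI67 (-4.20), KIF18B (-3.97), KIF20A (-3.48) and CENPE (-3.41), and the 1 gene that was not called was MYBL2 (-0.02 ± 0.11, adjusted p = 0.897). The share of counts from mitochondrial genes was 7.55 to 8.04% in the vehicle libraries and 5.70 to 6.21% at this dose, and its part in the result was not tested. The count was 47 by DESeq2 as well.

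**Figure D2:**
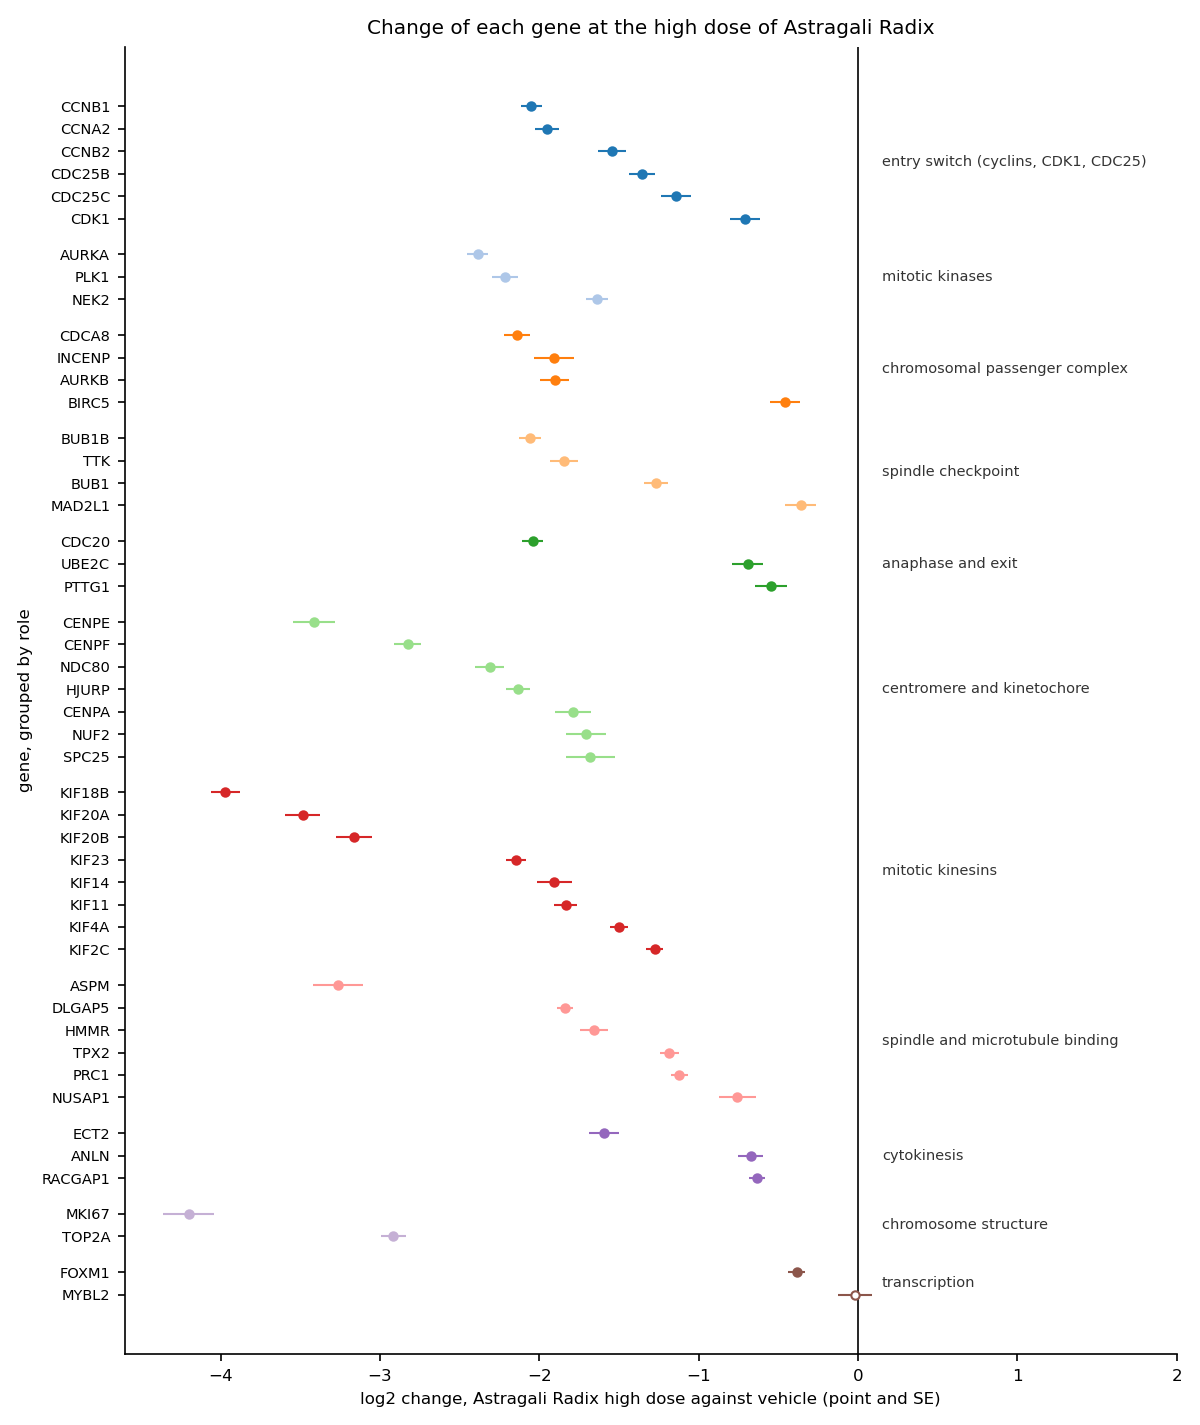
Log2 change of each of the 48 genes at the high dose of Astragali Radix against the vehicle (horizontal axis; point and SE, 3 libraries per group), grouped by role; filled points were called and open ones were not. All points but MYBL2 (-0.02) are filled and lie left of 0, from MKI67 at -4.20 to MAD2L1 at -0.36.

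Entry into mitosis rests on the kinase CDK1, its partners cyclin A2 (CCNA2), cyclin B1 (CCNB1) and cyclin B2 (CCNB2), and the CDC25 phosphatases, which remove the inhibitory phosphates from CDK1. All 6 of these genes fell at the high dose of Astragali Radix. CDC25B stood at 297, 284 and 293 CPM in the vehicle and at 125, 111 and 105 CPM at the high dose of Astragali Radix. CCNB1 was at 189, 198 and 190.1 CPM in the vehicle libraries and 48.5, 48.4 and 42.2 CPM in the treated ones. CCNA2 went from 84.6, 80.9 and 82.2 CPM with vehicle to 24.5, 20.2 and 19.2 CPM with the extract. The groups did not overlap in any of the 3. For CDC25B, CCNB1 and CCNA2 the log2 changes were -1.36 ± 0.08, -2.05 ± 0.07 and -1.95 ± 0.07 (largest adjusted p of these 2.54e-19, edgeR). The kinase gene itself changed least among the 6: CDK1 was at 68.6, 72.00 and 65.2 CPM in the vehicle and 45.3, 44.3 and 36.2 CPM at the high dose (log2 -0.71 ± 0.09, adjusted p = 7.92e-09), where CCNB2 changed by -1.55 ± 0.09 and CDC25C by -1.14 ± 0.09. Differences between these genes were not tested. With Palmul-tang, CDC25B was at 257, 251 and 249.9 CPM at the low dose and 223, 219.7 and 216 CPM at the high dose. CCNB1 under Palmul-tang was at 171, 162 and 171 CPM (low) and 154, 158 and 142 CPM (high). CCNA2 libraries of Palmul-tang held 75.9, 76.7 and 80.1 CPM at the low and 62.3, 59.98 and 61.4 CPM at the high dose. The high-dose libraries lay below the low-dose ones in all of these. By edgeR the change was called in CCNA2 (log2 -0.34 ± 0.07, adjusted p = 7.14e-04) and did not pass the test in CDC25B (log2 -0.20 ± 0.08, adjusted p = 0.205) and CCNB1 (log2 -0.15 ± 0.06, adjusted p = 0.232).

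PLK1 and AURKA are the kinases that mature the centrosomes and build the bipolar spindle, and NEK2 separates the centrosomes. All 3 fell at the high dose of Astragali Radix. PLK1 stood at 196, 168 and 182 CPM in the vehicle and at 49.1, 37.7 and 30.9 CPM at the high dose of Astragali Radix. AURKA was at 139, 136 and 134 CPM in the vehicle libraries and 28.8, 26.7 and 22.6 CPM in the treated ones. NEK2 went from 30.1, 31.03 and 30.3 CPM with vehicle to 10.7, 10.3 and 8.24 CPM with the extract. No treated library reached a vehicle library in any of them. For PLK1, AURKA and NEK2 the log2 changes were -2.21 ± 0.08, -2.39 ± 0.07 and -1.64 ± 0.07 (largest adjusted p of these 3.37e-25, edgeR). With Palmul-tang, PLK1 was at 134, 123 and 125 CPM at the low dose and 105, 100.3 and 104 CPM at the high dose. AURKA under Palmul-tang was at 111, 106 and 109 CPM (low) and 96.8, 90.4 and 91.00 CPM (high). NEK2 libraries of Palmul-tang held 27.4, 26.4 and 28.03 CPM at the low and 22.98, 23.97 and 23.1 CPM at the high dose. Libraries of the high dose were below those of the low dose in all of these. In the edgeR fit the change was called in PLK1 (log2 -0.30 ± 0.08, adjusted p = 0.0105), AURKA (log2 -0.23 ± 0.06, adjusted p = 0.0186) and NEK2 (log2 -0.22 ± 0.06, adjusted p = 0.0235).

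The chromosomal passenger complex, which corrects wrong attachments of chromosomes to the spindle, consists of the kinase AURKB with the scaffold INCENP, survivin (BIRC5) and borealin (CDCA8). Its 4 genes fell at the high dose of Astragali Radix, by unequal amounts. BIRC5 stood at 148, 151 and 144 CPM in the vehicle and at 113, 107 and 103 CPM at the high dose of Astragali Radix. CDCA8 was at 88.1, 92.2 and 90.9 CPM in the vehicle libraries and 22.3, 20.99 and 18.01 CPM in the treated ones. INCENP went from 66.6, 60.4 and 60.7 CPM with vehicle to 18.6, 16.02 and 15.3 CPM with the extract. The groups stayed apart in all 3. For BIRC5, CDCA8 and INCENP the log2 changes were -0.46 ± 0.09, -2.14 ± 0.08 and -1.91 ± 0.13 (largest adjusted p of these 4.11e-05, edgeR), and AURKB changed by -1.90 ± 0.09. With Palmul-tang, BIRC5 was at 130.1, 130.0 and 122 CPM at the low dose and 109, 112 and 107 CPM at the high dose. CDCA8 under Palmul-tang was at 70.1, 68.9 and 70.97 CPM (low) and 56.5, 56.7 and 59.97 CPM (high). INCENP libraries of Palmul-tang held 48.8, 48.05 and 46.5 CPM at the low and 43.4, 42.7 and 41.1 CPM at the high dose. High and low dose did not overlap, the high being lower, in all of these. In the test across all genes (edgeR) the change was called in CDCA8 (log2 -0.28 ± 0.07, adjusted p = 0.0191) and did not pass the test in BIRC5 (log2 -0.22 ± 0.09, adjusted p = 0.252) and INCENP (log2 -0.17 ± 0.12, adjusted p = 0.631). AURKB, which had the largest Palmul-tang change of the 48 genes, went from 47.97, 40.5 and 44.4 CPM to 32.00, 32.9 and 32.8 CPM (log2 -0.44 ± 0.08, adjusted p = 2.85e-04).

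The spindle checkpoint holds back anaphase until every kinetochore is attached, with TTK, BUB1 and BUB1B at the kinetochore and MAD2L1 as the inhibitor of CDC20. All 4 genes fell at the high dose of Astragali Radix. TTK stood at 74.4, 72.7 and 70.1 CPM in the vehicle and at 21.8, 20.2 and 18.4 CPM at the high dose of Astragali Radix. BUB1 was at 75.6, 71.5 and 69.2 CPM in the vehicle libraries and 30.8, 31.9 and 26.99 CPM in the treated ones. BUB1B went from 49.2, 49.3 and 46.2 CPM with vehicle to 13.4, 11.4 and 9.84 CPM with the extract. Treated and vehicle libraries did not overlap. For TTK, BUB1 and BUB1B the log2 changes were -1.84 ± 0.09, -1.27 ± 0.07 and -2.06 ± 0.07 (largest adjusted p of these 3.43e-20, edgeR). MAD2L1 had the smallest called change of the 48 genes, from 41.6, 45.99 and 40.9 CPM to 34.2, 32.7 and 33.1 CPM (log2 -0.36 ± 0.10, adjusted p = 0.00114). With Palmul-tang, TTK was at 66.5, 65.7 and 66.8 CPM at the low dose and 57.8, 56.3 and 56.2 CPM at the high dose. BUB1 under Palmul-tang was at 61.5, 58.2 and 62.9 CPM (low) and 53.9, 51.4 and 51.2 CPM (high). BUB1B libraries of Palmul-tang held 52.1, 49.2 and 49.5 CPM at the low and 43.9, 43.7 and 42.3 CPM at the high dose. The high-dose libraries lay below the low-dose ones in all of these. By edgeR the change was called in BUB1B (log2 -0.22 ± 0.06, adjusted p = 0.0305) and did not pass the test in TTK (log2 -0.23 ± 0.08, adjusted p = 0.132) and BUB1 (log2 -0.22 ± 0.07, adjusted p = 0.0619).

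CDC20 activates the anaphase-promoting complex, UBE2C is the ubiquitin-conjugating enzyme that works with it, and securin (PTTG1) is the inhibitor of separase that it destroys. The 3 genes fell at the high dose of Astragali Radix, CDC20 by the largest amount. CDC20 stood at 275, 264 and 270.2 CPM in the vehicle and at 74.9, 62.97 and 58.7 CPM at the high dose of Astragali Radix. PTTG1 was at 214, 199 and 196 CPM in the vehicle libraries and 152, 145 and 119.6 CPM in the treated ones. UBE2C went from 94.8, 95.1 and 92.4 CPM with vehicle to 63.9, 65.7 and 44.5 CPM with the extract. The groups were separate in each. For CDC20, PTTG1 and UBE2C the log2 changes were -2.04 ± 0.07, -0.55 ± 0.10 and -0.69 ± 0.10 (largest adjusted p of these 3.95e-06, edgeR). With Palmul-tang, CDC20 was at 241, 215 and 221 CPM at the low dose and 203, 195 and 194 CPM at the high dose. PTTG1 under Palmul-tang was at 165, 154 and 158 CPM (low) and 142, 140.1 and 136 CPM (high). UBE2C libraries of Palmul-tang held 82.1, 75.7 and 77.4 CPM at the low and 68.5, 66.2 and 65.2 CPM at the high dose. Libraries of the high dose were below those of the low dose in all of these. In the edgeR fit the change did not pass the test in CDC20 (log2 -0.19 ± 0.06, adjusted p = 0.0769), PTTG1 (log2 -0.19 ± 0.10, adjusted p = 0.412) and UBE2C (log2 -0.23 ± 0.10, adjusted p = 0.221).

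At the centromere, CENPA is the histone variant that marks the site and HJURP its loading chaperone, NDC80, NUF2 and SPC25 are subunits of the complex that grips microtubules, CENPE is a motor that brings chromosomes to the spindle equator, and CENPF is a large kinetochore protein. All 7 fell at the high dose of Astragali Radix by a log2 of more than 1. CENPF stood at 222, 224 and 213 CPM in the vehicle and at 31.9, 30.5 and 30.6 CPM at the high dose of Astragali Radix. CENPE was at 53.3, 49.7 and 51.3 CPM in the vehicle libraries and 5.97, 4.54 and 3.87 CPM in the treated ones. HJURP went from 49.6, 51.5 and 47.1 CPM with vehicle to 13.1, 10.1 and 10.6 CPM with the extract. Every treated library was below every vehicle library. For CENPF, CENPE and HJURP the log2 changes were -2.82 ± 0.09, -3.41 ± 0.13 and -2.13 ± 0.07 (largest adjusted p of these 2.00e-26, edgeR). The others were NDC80 (-2.31 ± 0.09), CENPA (-1.79 ± 0.11), NUF2 (-1.71 ± 0.12) and SPC25 (-1.68 ± 0.15). With Palmul-tang, CENPF was at 189, 193 and 199.6 CPM at the low dose and 169, 166 and 161 CPM at the high dose. CENPE under Palmul-tang was at 52.7, 46.9 and 53.1 CPM (low) and 41.9, 40.98 and 38.4 CPM (high). HJURP libraries of Palmul-tang held 46.1, 41.8 and 42.5 CPM at the low and 44.8, 38.9 and 40.01 CPM at the high dose. High and low dose did not overlap, the high being lower, in CENPF and CENPE, while those of HJURP overlapped. In the test across all genes (edgeR) the change did not pass the test in CENPF (log2 -0.23 ± 0.08, adjusted p = 0.0895), CENPE (log2 -0.33 ± 0.10, adjusted p = 0.0627) and HJURP (log2 -0.08 ± 0.06, adjusted p = 0.754).

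The mitotic kinesins are motors that move along or trim microtubules: KIF11 pushes the spindle poles apart, KIF2C and KIF18B act on microtubule ends, and KIF4A, KIF14, KIF20A, KIF20B and KIF23 serve the central spindle and cytokinesis. All 8 fell at the high dose of Astragali Radix by a log2 of more than 1, and 3 of them by more than 3. KIF20A stood at 134, 126 and 124 CPM in the vehicle and at 13.7, 11.3 and 9.16 CPM at the high dose of Astragali Radix. KIF23 was at 117, 115 and 116 CPM in the vehicle libraries and 28.3, 26.1 and 24.1 CPM in the treated ones. KIF11 went from 114, 114 and 111 CPM with vehicle to 33.5, 31.8 and 29.5 CPM with the extract. The groups did not overlap. For KIF20A, KIF23 and KIF11 the log2 changes were -3.48 ± 0.11, -2.15 ± 0.06 and -1.83 ± 0.07 (largest adjusted p of these 1.04e-25, edgeR). KIF18B went from 53.4, 56.3 and 56.8 CPM to 3.56, 3.49 and 3.57 CPM (-3.97 ± 0.09, adjusted p = 3.51e-35), and the remaining changes were KIF20B (-3.16 ± 0.11), KIF14 (-1.90 ± 0.11), KIF4A (-1.50 ± 0.06) and KIF2C (-1.27 ± 0.05). With Palmul-tang, KIF20A was at 111, 96.3 and 101 CPM at the low dose and 80.2, 78.3 and 75.2 CPM at the high dose. KIF23 under Palmul-tang was at 97.9, 94.1 and 100.00 CPM (low) and 84.2, 77.8 and 79.7 CPM (high). KIF11 libraries of Palmul-tang held 102, 104 and 108 CPM at the low and 87.2, 85.1 and 89.6 CPM at the high dose. The high-dose libraries lay below the low-dose ones in all of these. By edgeR the change was called in KIF20A (log2 -0.40 ± 0.09, adjusted p = 0.0058), KIF23 (log2 -0.27 ± 0.06, adjusted p = 0.00223) and KIF11 (log2 -0.26 ± 0.07, adjusted p = 0.0177). KIF18B went from 45.1, 45.00 and 47.9 CPM to 35.4, 35.01 and 32.1 CPM (-0.43 ± 0.07, adjusted p = 2.75e-05).

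Of the spindle proteins, TPX2 activates AURKA and starts microtubules, PRC1 bundles them in the central spindle, ASPM sits at the poles, and HMMR, DLGAP5 and NUSAP1 bind and stabilise spindle fibres. All 6 fell at the high dose of Astragali Radix. TPX2 stood at 271, 281 and 270.4 CPM in the vehicle and at 133, 128 and 101 CPM at the high dose of Astragali Radix. PRC1 was at 161, 158 and 162 CPM in the vehicle libraries and 80.9, 73.01 and 67.1 CPM in the treated ones. ASPM went from 121, 113 and 114 CPM with vehicle to 12.7, 11.6 and 12.1 CPM with the extract. Vehicle and treated libraries were separate in all of them. For TPX2, PRC1 and ASPM the log2 changes were -1.18 ± 0.06, -1.12 ± 0.05 and -3.26 ± 0.16 (largest adjusted p of these 3.78e-22, edgeR). The others were DLGAP5 (-1.84 ± 0.05), HMMR (-1.66 ± 0.09) and NUSAP1 (-0.76 ± 0.12). With Palmul-tang, TPX2 was at 243, 216 and 233 CPM at the low dose and 197, 185 and 184 CPM at the high dose. PRC1 under Palmul-tang was at 138, 131 and 138 CPM (low) and 120.4, 118 and 118 CPM (high). ASPM libraries of Palmul-tang held 115, 108 and 117 CPM at the low and 93.3, 89.2 and 87.02 CPM at the high dose. Libraries of the high dose were below those of the low dose in all of these. In the edgeR fit the change was called in TPX2 (log2 -0.29 ± 0.06, adjusted p = 9.51e-04) and PRC1 (log2 -0.19 ± 0.05, adjusted p = 0.025) and did not pass the test in ASPM (log2 -0.33 ± 0.13, adjusted p = 0.206). For ASPM the change was -0.33 ± 0.04 without the 2 deviating Astragali Radix libraries, which are not part of this comparison.

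In cytokinesis, ANLN is the scaffold of the contractile ring, ECT2 the exchange factor that activates RHOA at the equator, and RACGAP1 the partner of KIF23 in centralspindlin. These 3 genes fell at the high dose of Astragali Radix. ANLN stood at 538, 523 and 510.0 CPM in the vehicle and at 381, 329 and 275 CPM at the high dose of Astragali Radix. ECT2 was at 175, 172 and 168 CPM in the vehicle libraries and 60.8, 58.5 and 51.3 CPM in the treated ones. RACGAP1 went from 91.1, 91.1 and 88.4 CPM with vehicle to 65.02, 57.2 and 51.9 CPM with the extract. There was no overlap between the groups. For ANLN, ECT2 and RACGAP1 the log2 changes were -0.67 ± 0.08, -1.59 ± 0.09 and -0.63 ± 0.05 (largest adjusted p of these 2.28e-10, edgeR). With Palmul-tang, ANLN was at 461, 445 and 465 CPM at the low dose and 378, 365 and 376 CPM at the high dose. ECT2 under Palmul-tang was at 171, 169 and 181 CPM (low) and 155, 150.4 and 150.1 CPM (high). RACGAP1 libraries of Palmul-tang held 83.6, 84.8 and 87.2 CPM at the low and 72.7, 73.8 and 68.2 CPM at the high dose. High and low dose did not overlap, the high being lower, in all of these. In the test across all genes (edgeR) the change was called in ANLN (log2 -0.29 ± 0.08, adjusted p = 0.0178) and RACGAP1 (log2 -0.25 ± 0.05, adjusted p = 4.54e-04) and did not pass the test in ECT2 (log2 -0.20 ± 0.09, adjusted p = 0.321).

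TOP2A untangles sister chromatids and MKI67 (Ki-67), the usual stain for proliferating cells, coats mitotic chromosomes. Both fell at the high dose of Astragali Radix, and MKI67 more than any of the other 47 genes, 18.4-fold. TOP2A stood at 418, 416 and 411 CPM in the vehicle and at 59.1, 53.9 and 51.8 CPM at the high dose of Astragali Radix. MKI67 was at 284, 268 and 273 CPM in the vehicle libraries and 14.5, 15.4 and 14.9 CPM in the treated ones. Each treated library was below each vehicle library. For the pair the log2 changes were -2.92 ± 0.08 and -4.20 ± 0.16 (largest adjusted p of these 5.65e-27, edgeR). With Palmul-tang, TOP2A was at 413, 410.3 and 443 CPM at the low dose and 371, 358 and 352 CPM at the high dose. MKI67 under Palmul-tang was at 229.7, 215 and 214 CPM (low) and 168, 169 and 168 CPM (high). The high-dose libraries lay below the low-dose ones in all of these. By edgeR the change did not pass the test in TOP2A (log2 -0.23 ± 0.07, adjusted p = 0.0575) and MKI67 (log2 -0.38 ± 0.13, adjusted p = 0.106). Without the 2 deviating Astragali Radix libraries, which are not part of this comparison, the changes were -0.22 ± 0.03 and -0.38 ± 0.05.

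FOXM1 and MYBL2, the activators of this gene wave, had, with MAD2L1, the 3 smallest changes. FOXM1 stood at 212, 211 and 217 CPM in the vehicle, 174, 169 and 168 CPM at the medium dose of Astragali Radix and 176, 156 and 159 CPM at the high dose. MYBL2 was at 48.8, 47.8 and 51.9 CPM in the vehicle, 35.00, 34.4 and 33.1 CPM at the medium dose and 54.2, 46.3 and 46.3 CPM at the high dose. FOXM1 was already below the vehicle at the medium dose (-0.33 ± 0.05) and changed by -0.38 ± 0.05 at the high dose (adjusted p = 1.11e-08, edgeR). MYBL2 at the high dose overlapped the vehicle, and the 95% interval of its change ran from -0.23 to 0.19, but all 3 libraries lay above those of the medium dose (log2 0.52 ± 0.11, adjusted p = 4.31e-05). With Palmul-tang, FOXM1 was at 178, 165 and 166 CPM at the low dose and 157, 153 and 154 CPM at the high dose, and MYBL2 at 40.1, 39.1 and 42.5 CPM and 36.4, 33.7 and 34.3 CPM. Libraries of the high dose were below those of the low dose in all of these. In the edgeR fit the change did not pass the test in FOXM1 (log2 -0.13 ± 0.05, adjusted p = 0.187) and MYBL2 (log2 -0.22 ± 0.11, adjusted p = 0.359).

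**Figure D3:**
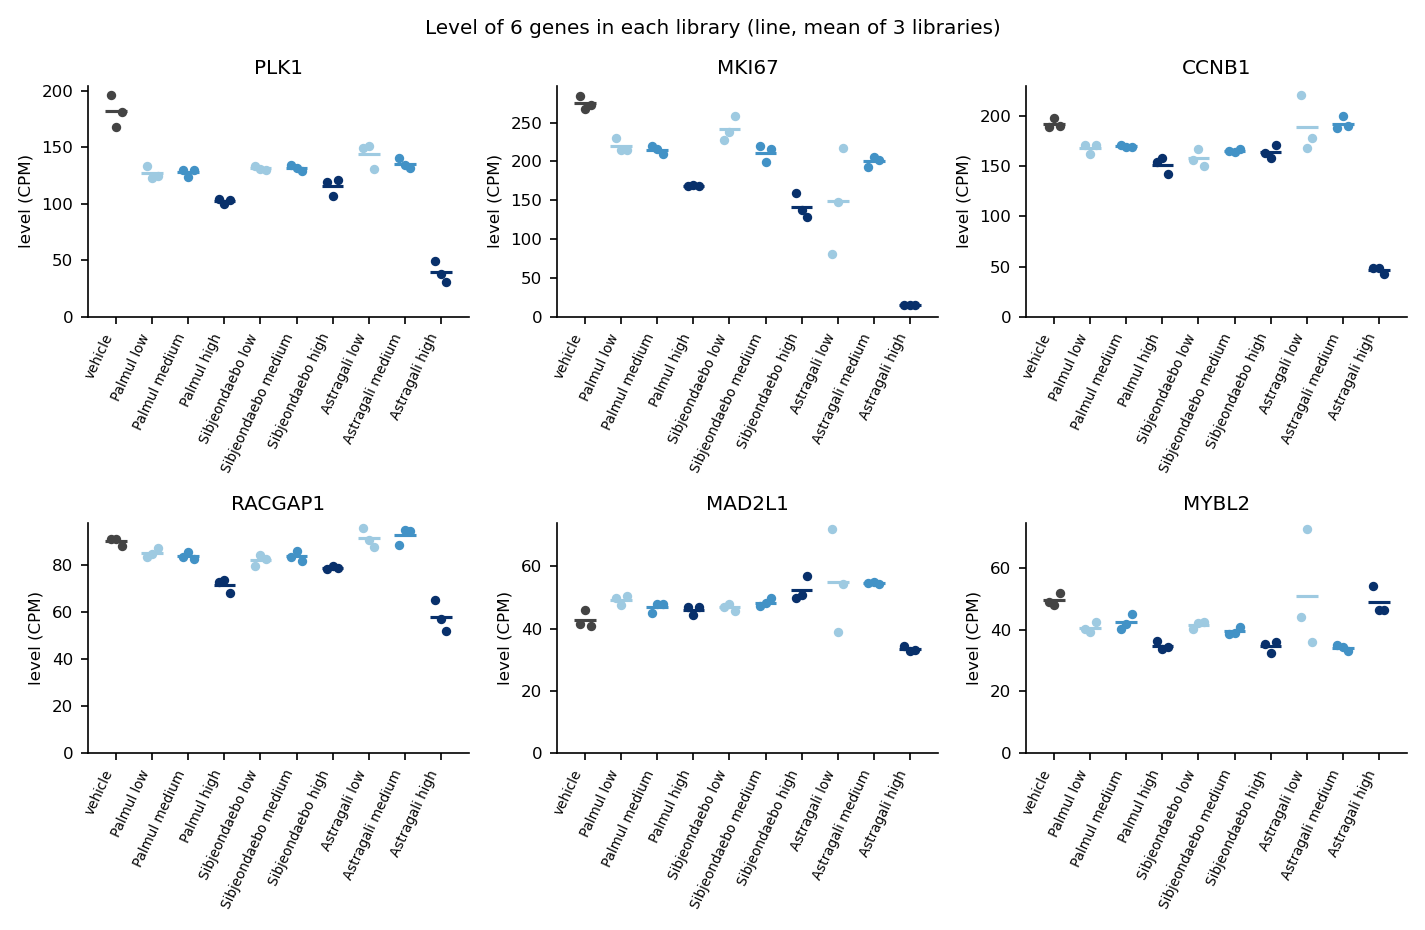
Level of PLK1, MKI67, CCNB1, RACGAP1, MAD2L1 and MYBL2 in each library (CPM, vertical axes from 0) for the vehicle and the 3 doses of Palmul-tang, Sibjeondaebo-tang and Astragali Radix; lines are means of 3 libraries. PLK1 stands at 49.1, 37.7 and 30.9 CPM at the high dose of Astragali Radix, while MYBL2 there (54.2, 46.3 and 46.3 CPM) overlaps the vehicle.

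The change with Astragali Radix lay between the medium and the high dose. Between these doses 46 genes were lower and called, where 33.9% of all genes were called lower, with a median of -1.64, and MYBL2 was the 1 gene called higher, where 32.6% of all genes were. The 4 with the smallest adjusted p were KIF18B (-3.54), TOP2A (-2.93), DLGAP5 (-1.79) and AURKA (-2.20). Between high and low dose 45 genes were lower and called, with 38.7% of all genes called lower and a median of -1.52. Given, as in each list below, from the smallest adjusted p, the leading genes were KIF18B (-3.66), TOP2A (-2.62), CDC20 (-2.10) and AURKA (-2.09). The exceptions there were FOXM1 (0.02 ± 0.05), MYBL2 (-0.05 ± 0.11) and NUSAP1 (-0.22 ± 0.12, adjusted p = 0.093). With replicate 3 alone at the low dose, its spread taken from the other groups, 46 genes were called lower, with 33.8% of all genes, NUSAP1 among them (-0.49 ± 0.08, adjusted p = 4.47e-07, edgeR), and MYBL2 was called higher (0.43 ± 0.07, adjusted p = 3.88e-07), with 31.8%. From the low to the medium dose the median difference of mean levels was 0.09 (log2), and from medium to high -1.64. Of the 48 genes, 46 had their lowest mean of the 3 doses at the high dose, and the share of all genes with this order is not given here.

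Against the vehicle, the medium dose of Astragali Radix had 13 genes called lower, with 8.81% of all genes called lower, and a median of -0.15. Those with the smallest adjusted p were FOXM1 (-0.33), KIF18B (-0.43), KIF20A (-0.58) and PLK1 (-0.43). MAD2L1 was called higher (0.35 ± 0.09, from 41.6, 45.99 and 40.9 CPM to 54.5, 54.96 and 54.4 CPM), where 7.75% of all genes were. The count of 13 was 8 without vehicle replicate 2 and 26 without the 2 deviating low-dose libraries, a fit in which 15.5% of all genes were called lower and 18.4% higher, CDK1, MAD2L1 and KIF2C among them. At the low dose 29 genes were called lower, with 19.2% of all genes called lower, and the smallest adjusted p values were those of FOXM1 (-0.41), KIF20A (-0.73), CENPF (-0.55) and KIF23 (-0.41). BIRC5 (0.27 ± 0.09), MAD2L1 (0.36 ± 0.09) and PTTG1 (0.25 ± 0.10) were called higher, with 21.6% of all genes, though their libraries overlapped those of the vehicle. These low-dose calls rest on libraries that disagreed: MKI67 stood at 81.3, 148 and 218 CPM in replicates 1, 2 and 3, MYBL2 at 43.9, 72.6 and 35.8 CPM and MAD2L1 at 72.05, 38.8 and 54.2 CPM. The median log2 ratio of the 48 genes to the vehicle mean was -0.18, -0.43 and -0.17 in these libraries. With replicate 3 alone, its spread taken from the other groups, 23 were called lower, with 7.53% of all genes, and CDK1 and MAD2L1 higher, with 8.38%. When edgeR was fitted to the vehicle and the 3 low-dose libraries alone, 0 of the 48 genes were called, as were 0 of all 15715 genes tested. In the fit to all groups 30 were lower at an unadjusted p below 0.05. By DESeq2 30 were called lower, with 3437 of all 17675 genes. Transcript length and base composition accounted for 15.5 and 38.0% of the variance of replicates 1 and 2 over genes, and their mitochondrial shares were 5.93 and 1.38% against 4.97% in replicate 3. The part of these in the low-dose counts was not tested.

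Among the other extracts, comparisons of high with low dose avoid the vehicle. With Palmul-tang all 48 genes were lower on average at the high dose, in 46 of them the high-dose libraries lay below the low-dose ones (in 15.1% of all genes), and 19 were called, where 1.77% of all genes tested were called lower. The median change was -0.22, with -0.00152 over all genes. The 48 changes ran from -0.44 (AURKB) to -0.08 (HJURP). The 4 smallest adjusted p values were those of KIF18B (2.75e-05), AURKB (2.85e-04), RACGAP1 (4.54e-04) and CCNA2 (7.14e-04). The count of 19 moved with the libraries used: it was 12 without Palmul-tang high replicate 1, 7 without Palmul-tang low replicate 1, 8 without Palmul-tang high replicate 2, 9 without Palmul-tang high replicate 3 and 9 without Palmul-tang low replicate 3. Without replicates 1 and 2 of the low dose of Astragali Radix it was 43, with 5.58% of all genes called lower. The high dose had the lowest mean of the 3 doses in all 48 genes. This order held for 46 genes with Astragali Radix, 45 with Sagunja-tang, 44 with Samul-tang, 38 with Sibjeondaebo-tang and 26 with Cinnamomi Cortex. The share of all genes with it is not given here. With Palmul-tang the median difference was -0.02 from low to medium and -0.22 from medium to high.

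Sibjeondaebo-tang had 22 genes called lower at its high against its low dose, with 10.7% of all genes called lower, and a median of -0.19. Its 4 smallest adjusted p values belonged to KIF18B, CENPF, KIF23 and CENPE. KIF18B went from 44.2, 44.5 and 43.97 CPM to 28.9, 28.6 and 28.3 CPM (log2 -0.63 ± 0.07, adjusted p = 3.28e-09). CENPF went from 194, 208 and 203 CPM to 145, 139 and 133 CPM (-0.54 ± 0.08). The high-dose libraries of both lay below the low-dose ones. KIF23 went from 96.2, 100.1 and 102 CPM to 76.97, 74.6 and 78.9 CPM (-0.37 ± 0.06), and CENPE from 49.6, 53.8 and 50.8 CPM to 30.7, 36.3 and 30.6 CPM (-0.66 ± 0.11). MKI67 had the largest change (-0.77 ± 0.13, adjusted p = 2.99e-05). The 48 changes ran from -0.77 to 0.17: 39 were negative, and MAD2L1 (0.17 ± 0.09, adjusted p = 0.21) and PTTG1 (0.11 ± 0.10, adjusted p = 0.477) had all high-dose libraries above the low-dose ones without passing the test. Without the 2 deviating Astragali Radix libraries 34 genes were called lower, with 18.1% of all genes, and MAD2L1 and PTTG1 were called higher, with 20.7%.

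Sagunja-tang and Samul-tang, whose herbs Palmul-tang joins, were read the same way. For Sagunja-tang 5 genes were called lower, with 1.71% of all genes, and a median of -0.13. RACGAP1, the one with the smallest adjusted p, went from 93.1, 90.3 and 92.1 CPM to 77.7, 78.3 and 79.1 CPM (-0.23 ± 0.05, adjusted p = 0.00173), and the next were KIF4A (-0.21 ± 0.05), CCNB1 (-0.23 ± 0.06) and KIF23 (-0.22 ± 0.06). In 34 of the 48 the high-dose libraries lay below the low-dose ones, as in 15.3% of all genes. For Samul-tang 3 genes were called, with 0.662% of all genes, and a median of -0.16: KIF18B (-0.31 ± 0.07, adjusted p = 0.00613), RACGAP1 (-0.20 ± 0.05) and PRC1 (-0.20 ± 0.05). KIF18B went from 42.7, 48.5 and 46.9 CPM to 39.3, 33.1 and 39.1 CPM, with no overlap, and the libraries of 42 genes lay apart in that direction, as in 11.4% of all genes. The count of Sagunja-tang was 1 to 2 without any 1 of the 6 libraries, and that of Samul-tang 1 without Samul-tang high replicate 1, 1 without Samul-tang low replicate 1, 1 without Samul-tang high replicate 2, 0 without Samul-tang low replicate 2 and 1 without Samul-tang high replicate 3. Without replicates 1 and 2 of the low dose of Astragali Radix they were 24 and 25, with 6.75% and 3.24% of all genes called lower.

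Cinnamomi Cortex had 0 of the 48 genes called between high and low dose by edgeR, with 0.198% of all genes called lower, 1 at an unadjusted p below 0.05 and 0 by DESeq2. Changes ran from -0.12 to 0.08 with a median of -0.01. PLK1 was at 129, 129.8 and 129 CPM at the low and 134, 131 and 129 CPM at the high dose (95% interval of the log2 change -0.12 to 0.17), and MKI67 at 218, 237 and 209 and 209.7, 213 and 213 CPM (-0.32 to 0.19). The libraries of the 2 doses overlapped in both genes. Without the 2 deviating Astragali Radix libraries the count was 0, with 1.26% of all genes called lower.

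**Figure D4:**
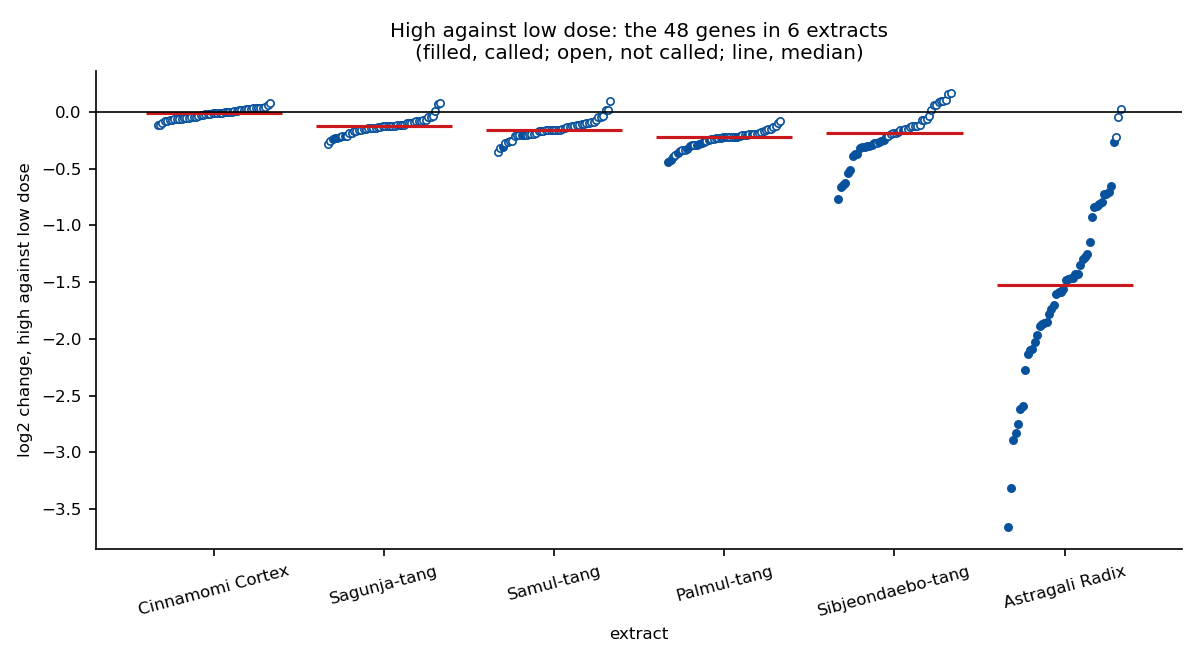
Log2 change of the 48 genes between high and low dose (vertical axis) for each of the 6 replicated extracts, ordered by size within an extract; filled points were called, open ones were not, and the line is the median. The medians are -0.01, -0.13, -0.16, -0.22, -0.19 and -1.52 from left to right, and with Palmul-tang every point lies below 0.

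Across the 4 formulas, which share no library in these comparisons, 36 of the 48 genes had a negative change between high and low dose in all 4, as had 14.6% of all genes tested. In 25 the high-dose libraries lay below the low-dose ones in every formula, as in 1.89% of all genes. CCNA2, the cyclin, had log2 differences of -0.09 with Sagunja-tang, -0.20 with Samul-tang, -0.34 with Palmul-tang and -0.25 with Sibjeondaebo-tang. KIF20A, in the same order, had differences of -0.18, -0.31, -0.40 and -0.51. HJURP, by contrast, had 0.08, 0.10, -0.08 and -0.12. KIF4A, KIF18B, KIF23, PRC1 and RACGAP1 were called in 3 of the 4 formulas. Of the other members, 10 were called in 2 formulas, 14 in 1 and 19 in 0. The shares of all genes called in as many formulas are not given here.

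Whether the change with Palmul-tang was larger than with either parent formula was tested as the difference of the high minus low changes. Of the 48 genes, 0 were called against Sagunja-tang by edgeR, with 0.17% of all genes called lower, 3 at an unadjusted p below 0.05 and 0 by DESeq2. Against Samul-tang 0 were called, with 0.0735% of all genes, 1 at an unadjusted p and 0 by DESeq2. The differences were negative in 45 and 44 of the 48 genes, with medians of -0.10 and -0.09. For KIF18B they were -0.26 ± 0.10 and -0.12 ± 0.10, and for AURKB -0.32 ± 0.12 and -0.18 ± 0.12, with 95% intervals for AURKB of -0.55 to -0.09 and -0.40 to 0.05. Without the 2 deviating libraries AURKB (-0.31), CCNA2 (-0.24) and HMMR (-0.22) were called lower against Sagunja-tang and CDC25B (-0.22) against Samul-tang, with 0.643% and 0.872% of all genes called lower.

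Samul-tang and Sagunja-tang were also compared directly, at the high dose. None of the 48 genes was called by edgeR, with 2.47% of all genes called lower, 2 lower and 2 higher at an unadjusted p below 0.05, and 0 by DESeq2. The median difference was -0.03, and without the 2 deviating libraries 5 were called lower, with 7.2% of all genes, and 2 higher, with 8.41%. Those lower were MYBL2 (-0.32), HMMR (-0.16), NUSAP1 (-0.16), TOP2A (-0.09) and CDK1 (-0.15), and those higher CDC25B (0.23) and KIF23 (0.13). Sibjeondaebo-tang against Palmul-tang had 1 gene called higher, with 1.75% of all genes, and 2 called lower, with 3.71%. CDC20 was at 203, 195 and 194 CPM with Palmul-tang and 248, 215 and 249.5 CPM with Sibjeondaebo-tang (0.26 ± 0.06, adjusted p = 0.006). KIF18B was at 35.4, 35.01 and 32.1 CPM with Palmul-tang and 28.9, 28.6 and 28.3 CPM with Sibjeondaebo-tang (-0.26 ± 0.07, adjusted p = 0.02). CENPF was at 169, 166 and 161 CPM with Palmul-tang and 145, 139 and 133 CPM with Sibjeondaebo-tang (-0.25 ± 0.08, adjusted p = 0.0421). The libraries of the 2 formulas did not overlap in these 3 genes. The number called lower was 0 without Palmul-tang high replicate 1, 0 without Sibjeondaebo-tang high replicate 1, 0 without Palmul-tang high replicate 2, 1 without Palmul-tang high replicate 3 and 0 without Sibjeondaebo-tang high replicate 3. Without the 2 deviating Astragali Radix libraries 8 were called lower, with 11% of all genes, and 12 higher, with 12.3%. The largest of these differences were -0.31 ± 0.06 in CENPE and -0.29 ± 0.04 in ASPM on the lower side, and 0.28 ± 0.05 in PTTG1 and 0.26 ± 0.05 in CDC20 on the higher side. With length and base composition trends removed, 2 were called lower, with 5.18% of all genes, and 11 higher, with 13.2%.

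The change was also set against transcript length. With Sibjeondaebo-tang, high against low, Spearman's correlation over the 48 genes between the change and the longest annotated transcript was -0.60, and -0.21 over all 17552 genes with a length. The 8 members of at least 5000 bases, MKI67, ASPM, CENPF, CENPE, TOP2A, KIF14, KIF20B and MAD2L1, had a median of -0.46, and the 15 under 2500 bases, among them PTTG1, UBE2C and CENPA, -0.04, though MAD2L1, with 0.17, had the highest change of the 48. At the high dose of Astragali Radix against the vehicle the correlation was -0.34 over the members and -0.03 over all genes, with medians of -3.04 and -1.71. With Palmul-tang it was -0.13, with medians of -0.23 and -0.23. With Sagunja-tang and Samul-tang it was -0.24 and 0.12. These are correlations across genes that share their libraries, given as descriptions. With length and base composition trends removed from each library, the members called lower were 36 for Palmul-tang, 24 for Sibjeondaebo-tang and 47 for the high dose of Astragali Radix, with 3.67%, 10.4% and 33.8% of all genes. At the high dose of Astragali Radix the members with TTTGAA in the promoter had a median change of -1.84 (n = 21) and those without it -1.80 (n = 20), and those with and without CCAAT -1.90 (n = 32) and -1.36 (n = 9).

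**Figure D5:**
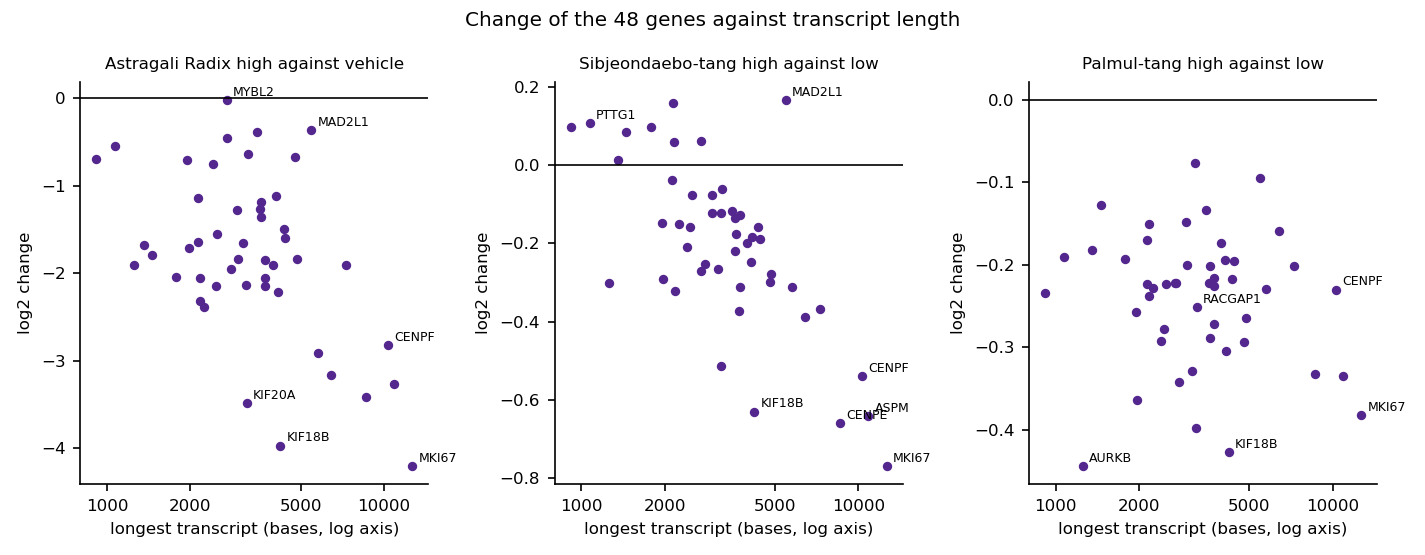
Log2 change of the 48 genes (vertical axes, scales differ) against the longest annotated transcript (bases, log axis) for Astragali Radix high against vehicle, Sibjeondaebo-tang high against low and Palmul-tang high against low. Long transcripts such as MKI67 and CENPE lie lowest with Sibjeondaebo-tang (-0.77 and -0.66), while MAD2L1, also long by this measure, lies highest (0.17). With Palmul-tang the members run level (Spearman's correlation -0.13).

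Against the vehicle, the high doses of the 4 formulas had most of the set called lower. These comparisons, and those that follow, share the 3 vehicle libraries, so they are not independent of each other. Palmul-tang had 42 of 48 called, with 10.2% of all genes called lower and a median of -0.41, led by PLK1 (-0.82), KIF18B (-0.70), TPX2 (-0.54) and AURKA (-0.56). Sibjeondaebo-tang had 41 of 48 called, with 11.9% of all genes called lower and a median of -0.36, led by KIF18B (-0.96), KIF23 (-0.59), CENPF (-0.66) and PLK1 (-0.65). MAD2L1 was called higher there (0.29 ± 0.09, from 41.6, 45.99 and 40.9 CPM to 49.8, 50.8 and 56.9 CPM), with 11.2% of all genes. Samul-tang had 34 of 48 called, with 10.3% of all genes called lower and a median of -0.29, led by PLK1 (-0.70), FOXM1 (-0.44), KIF18B (-0.58) and AURKA (-0.46). Sagunja-tang had 29 of 48 called, with 11.6% of all genes called lower and a median of -0.24, led by PLK1 (-0.70), KIF18B (-0.52), AURKA (-0.46) and CDCA8 (-0.56). PLK1 was at 105, 100.3 and 104 CPM with Palmul-tang and 111, 111 and 115 CPM with Sagunja-tang, all below the 196, 168 and 182 CPM of the vehicle. Cinnamomi Cortex at its high dose had 19 called lower, with 8.56% of all genes, led by FOXM1 (-0.44), PLK1 (-0.47), AURKA (-0.33) and CDCA8 (-0.37), and MAD2L1 called higher (0.35 ± 0.09), with 7.7%. Its count was 11 without vehicle replicate 1 and 12 without vehicle replicate 3.

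At medium and low dose these extracts also lay below the vehicle in part of the set, although the median change between the high and low dose of Cinnamomi Cortex was -0.01. Among the 48 genes PLK1 or FOXM1 had the smallest adjusted p in all but 1 of these 10 comparisons, Sibjeondaebo-tang medium, where it was KIF18B. Cinnamomi Cortex medium had 16 called lower, with 7.17% of all genes, led by FOXM1 (-0.38), PLK1 (-0.47), AURKA (-0.31) and HJURP (-0.31), and MAD2L1 (0.31) called higher, with 5.86%. Cinnamomi Cortex low had 15 called lower, with 7.12% of all genes, led by PLK1 (-0.50), FOXM1 (-0.33), KIF18B (-0.34) and KIF23 (-0.27), and MAD2L1 (0.37) called higher, with 6.13%. Sagunja-tang medium had 14 called lower, with 7.31% of all genes, led by FOXM1 (-0.32), PLK1 (-0.43), KIF18B (-0.37) and CDCA8 (-0.30), and CDK1 (0.31) and MAD2L1 (0.36) called higher, with 6.16%. Sagunja-tang low had 16 called lower, with 8.03% of all genes, led by PLK1 (-0.53), FOXM1 (-0.36), KIF18B (-0.35) and AURKA (-0.31), and MAD2L1 (0.36) called higher, with 6.03%. Samul-tang medium had 17 called lower, with 6.88% of all genes, led by FOXM1 (-0.38), PLK1 (-0.52), KIF18B (-0.37) and AURKA (-0.32). Samul-tang low had 14 called lower, with 6.37% of all genes, led by PLK1 (-0.49), FOXM1 (-0.31), CDCA8 (-0.33) and AURKA (-0.26). Palmul-tang medium had 18 called lower, with 5.75% of all genes, led by PLK1 (-0.51), FOXM1 (-0.30), KIF23 (-0.31) and CDCA8 (-0.39). Palmul-tang low had 16 called lower, with 5.57% of all genes, led by PLK1 (-0.52), FOXM1 (-0.33), AURKA (-0.33) and CDCA8 (-0.37). Sibjeondaebo-tang medium had 15 called lower, with 3.45% of all genes, led by KIF18B (-0.43), PLK1 (-0.47), FOXM1 (-0.29) and TPX2 (-0.33). Sibjeondaebo-tang low had 21 called lower, with 5.47% of all genes, led by PLK1 (-0.47), AURKA (-0.31), FOXM1 (-0.25) and CDCA8 (-0.36). As an example, PLK1 was at 129, 129.8 and 129 CPM at the low dose of Cinnamomi Cortex and FOXM1 at 173, 167 and 170.4 CPM, where the vehicle had 196, 168 and 182 and 212, 211 and 217 CPM, without overlap in either gene. With 1 library left out, the count for Cinnamomi Cortex medium was 8 without vehicle replicate 1, 10 without vehicle replicate 2, 9 without vehicle replicate 3, 8 without Cinnamomi Cortex medium replicate 1 and 8 without Cinnamomi Cortex medium replicate 2. For Cinnamomi Cortex low it was 9 without vehicle replicate 1, 9 without Cinnamomi Cortex low replicate 2 and 9 without Cinnamomi Cortex low replicate 3. For Sagunja-tang medium it was 5 to 9 without any 1 of the 6 libraries. For Sagunja-tang low it was 8 without vehicle replicate 1, 10 without vehicle replicate 2, 10 without vehicle replicate 3, 9 without Sagunja-tang low replicate 2 and 9 without Sagunja-tang low replicate 3. For Samul-tang medium it was 11 without vehicle replicate 1 and 11 without Samul-tang medium replicate 2. For Samul-tang low it was 6 without vehicle replicate 1, 8 without vehicle replicate 2, 6 without Samul-tang low replicate 1, 8 without Samul-tang low replicate 2 and 7 without Samul-tang low replicate 3. For Palmul-tang low it was 10 without vehicle replicate 1 and 9 without Palmul-tang low replicate 2. For Sibjeondaebo-tang medium it was 7 to 9 without any 1 of the 6 libraries. For Sibjeondaebo-tang low it was 13 without vehicle replicate 1, 12 without vehicle replicate 2 and 12 without Sibjeondaebo-tang low replicate 1. Without replicates 1 and 2 of the low dose of Astragali Radix, the counts were 24 for Cinnamomi Cortex medium, 27 for Cinnamomi Cortex low, 23 for Sagunja-tang medium, 24 for Sagunja-tang low, 31 for Samul-tang medium, 25 for Samul-tang low, 33 for Palmul-tang medium, 29 for Palmul-tang low, 37 for Sibjeondaebo-tang medium and 36 for Sibjeondaebo-tang low, with 9.77 to 15.4% of all genes called lower. In the same fit MAD2L1 was called higher in 9 of these 10 comparisons, CDK1 and TOP2A in 5 each and ECT2 in 1, with 10.4 to 15.9% of all genes called higher where a member was. The share of mitochondrial counts in the groups of these 5 extracts ran from 5.51 to 7.18%, below the 7.55 to 8.04% of the vehicle, and its part in these counts was not tested.

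MAD2L1, the checkpoint inhibitor, was the member called higher most often. It was called higher than the vehicle in 8 comparisons, with changes from 0.29 to 0.37, and lower at the high dose of Astragali Radix. Its libraries held 54.6, 54.8 and 53.96 CPM at the high dose of Cinnamomi Cortex, 55.2, 56.2 and 53.6 CPM at the medium dose of Sagunja-tang and 41.6, 45.99 and 40.9 CPM in the vehicle. CDK1 was called higher in 1 comparison, the medium dose of Sagunja-tang (87.3, 85.9 and 81.6 CPM, with 68.6, 72.00 and 65.2 CPM in the vehicle, log2 0.31 ± 0.09). In both genes these extract libraries lay above the vehicle libraries. Without the 2 deviating Astragali Radix libraries MAD2L1 was called higher in 15 of the 18 comparisons with the vehicle and CDK1 in 8.

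Other genes of the same processes were read from lists outside the 48, and each count is to be read against the 35.6% of all genes called lower and 32.6% called higher in this comparison. At the high dose of Astragali Radix, 19 of 20 further spindle and centrosome genes fell, with the motor KIF15 (-2.92 ± 0.09), CKAP2L (-2.47) and PLK4, the kinase of centriole duplication (-2.22), changing most, and GAS2L3 rose (0.33). Of 27 further kinetochore and centromere genes 16 fell, with SPC24 (-3.17), KNL1 (-2.55) and SPDL1 (-1.94) changing most, and MIS12 (1.21), CENPN (0.69) and CENPW (0.28) rose. Of 18 genes of cohesion, condensin and separation 13 fell, among them ESPL1, which encodes separase (-2.20), SGO2 (-1.74) and NCAPD2 (-1.71), and STAG2 (1.11), STAG1 (0.31) and WAPL (0.22) rose. Of 11 further cytokinesis genes 7 fell, with the kinase CIT (-2.37), ARHGEF39 (-1.92) and ARHGAP11A (-1.78) changing most, and KIF13A (0.63), RHOA (0.56) and CHMP4B (0.46) rose. Of 17 further G2/M regulators 11 fell, with CDCA3 (-2.03), CCNF (-1.96) and GTSE1 (-1.95), and 3 rose: WEE1, the kinase that inhibits CDK1 (0.96), CKS1B (0.63) and CKS2 (0.48). Of 15 genes of the anaphase-promoting complex 8 fell, with FBXO5, its inhibitor (-1.21), ANAPC7 (-1.02) and ANAPC1 (-0.77), and 4 rose, with ANAPC11 (1.12), CDC26 (0.93) and ANAPC13 (0.33). The medians of these 6 lists ran from -1.37 (spindle and centrosome) to -0.28 (G2/M regulators), and that of all genes tested was -0.06.

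A list named upstream control (CDK inhibitors, E2F factors, DREAM subunits, p53 targets and others) held 34 measured genes. Of these, 14 rose and 16 fell at the high dose of Astragali Radix, where 32.6% of all genes rose and 35.6% fell. Whether they acted on the 48 genes was not tested. CDKN1A, which encodes the CDK inhibitor p21, was at 27.4, 28.1 and 25.6 CPM in the vehicle and 1289.8, 1304 and 1119 CPM at the high dose (log2 5.52 ± 0.08, adjusted p = 1.20e-42, edgeR). CDKN1C, the inhibitor p57, was at 0.454, 1.14 and 0.816 CPM and 21.9, 19.4 and 11.9 CPM (4.45 ± 0.26). The groups were far apart in both. E2F7, a repressor of the E2F family, rose (1.40 ± 0.10), and its relative E2F8 (-2.38), the activator E2F2 (-2.16) and RBL2, a DREAM subunit (-1.86), fell. S phase genes were read for comparison: of 25, 16 fell, with UHRF1 (-2.91), GINS1 (-1.65) and MCM10 (-1.61) changing most, and 4 rose, with CDC6 (0.80), CDT1 (0.51) and MCM7 (0.34). Their median was -0.42, with -1.81 for the 48 genes.

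With Palmul-tang, high against low, the calls in these lists were all lower, where 1.77% of all genes were called lower. They were 4 of 27 kinetochore genes, with SPDL1 (-0.50 ± 0.05, adjusted p = 2.34e-09), SKA3 (-0.25) and SKA2 (-0.22) changing most, and 4 of 20 spindle genes, with KIF18A (-0.32), TROAP (-0.29) and KIF15 (-0.28). CDCA3 (-0.43) and GTSE1 (-0.33) were called among 17 G2/M regulators, NCAPD2 (-0.29) and NCAPG (-0.25) among 18 genes of cohesion and condensin, and ARHGAP11A (-0.25) among 11 of cytokinesis. RRM2 (-0.33) and MCM10 (-0.25) were called among 25 S phase genes, and E2F2 (-0.44) and CDKN2C (-0.35) among 34 upstream genes. CDKN1A, which rose with Astragali Radix, was at 23.1, 23.7 and 23.7 CPM at the low and 27.7, 25.7 and 28.4 CPM at the high dose of Palmul-tang (log2 0.21 ± 0.07, adjusted p = 0.1).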

How the data were processed

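The deposited table holds the authors' expected counts (from the values, mostly whole numbers; RSEM is among the tools named) for 60675 genes, in 279 columns, of which the 60 that match the samples were used and 219 were left aside in every step. The submitters' processing notes name RSEM 1.3.3, STAR 2.7.3a, Trim Galore 0.6.5, FastQC 0.11.9 and the build hg38, and per the labels the kit was directional. The annotation release and the strand setting of the counting are not given in the sources used here. Of the values, 90.8% were whole within a tolerance of 1e-9, and the rest were rounded to whole numbers.

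Members and lists were chosen with earlier results of these data known. The 57 libraries of the 19 groups with 3 libraries were fitted together in edgeR 4.0.16 (R 4.3.3), with TMM scaling, filterByExpr at its defaults and the quasi-likelihood F test. Benjamini-Hochberg adjustment ran over the 17676 genes tested, and 29 contrasts were read. The SE is the log2 change over the square root of F, and a 95% interval is the change ± 1.96 SE. The common dispersion was 0.00656. The code was tested on simulated counts for Palmul-tang, high against low, with genes drawn from all those tested. It recovered 18 of 50 genes changed 1.25-fold, 31 of 50 changed 1.5-fold and 47 of 50 changed 4-fold. A gene with a small change can therefore go uncalled.

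Genes given by library were, in each role, those with the highest vehicle level, and in other comparisons the 4 called ones with the smallest adjusted p and any called against the majority. Genes added to these (AURKB, CDK1, MAD2L1, KIF18B and those in the examples) were chosen after their values were seen. Of the other lists, the called genes with the largest change each way were named. Alternatives were DESeq2 1.42.0, RLE size factors, no filter, only the groups compared, a replicate block, removal of length and GC trends (splines, 5 degrees of freedom, 17552 genes), each library left out (57 refits), and the fit without replicates 1 and 2 of the low dose of Astragali Radix. Transcript lengths and GC content came from GENCODE release 29, and promoters from RefSeq on GRCh38.p14, matched by gene.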

Additional observations from a re-analysis of the deposited data

Results flagged for a closer look

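In 3 genes all high-dose libraries lay above the low-dose ones with 1 formula and below them with Astragali Radix. The difference between the extracts was not tested in any of them, and the share of all genes with this pattern is not given here. The checkpoint gene MAD2L1 was 0.17 higher with Sibjeondaebo-tang and stood at -0.72 with Astragali Radix at the high against the low dose (log2), 0.889 apart. Securin (PTTG1) was 0.11 higher with Sibjeondaebo-tang and stood at -0.79 with Astragali Radix, 0.898 apart. The chaperone HJURP was 0.10 higher with Samul-tang and stood at -1.85 with Astragali Radix, 1.95 apart. In the fit to all libraries the 3 changes with the formulas did not pass the test of edgeR, and those with Astragali Radix did. Without replicates 1 and 2 of the low dose of Astragali Radix, which leaves 1 library at that dose with its spread taken from the other groups, PTTG1 stood at -0.21 with that extract, MAD2L1 at -0.72 and HJURP at -1.99, all called. In that fit MAD2L1 (0.17) and PTTG1 (0.11) with Sibjeondaebo-tang were called higher, and HJURP with Samul-tang (0.10) was not called.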

How the results depend on the processing

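The number of the 48 genes called lower changed with several settings, while RLE size factors turned the sign of no median. RLE size factors and the replicate block moved no count by over 1.5 times in the 29 comparisons, and Astragali Radix high against vehicle had 47 with the block. The numbers were not taken to pair the libraries, since no label says so and same-numbered libraries correlated by as little as -0.142 (median 0.009, with -0.005 for other numbers). As a hint from the data, 38 of 57 libraries correlated best with their own number, where 19 would with no relation. With smooth trends of length and GC content removed from each library, the counts that moved by over 1.5 times were 24 (Astragali Radix medium), 29 (Cinnamomi Cortex high), 26 (Cinnamomi Cortex medium), 29 (Cinnamomi Cortex low), 23 (Sagunja-tang medium), 26 (Sagunja-tang low), 33 (Samul-tang medium), 30 (Samul-tang low), 34 (Palmul-tang medium), 33 (Palmul-tang low), 31 (Sibjeondaebo-tang medium), 35 (Sibjeondaebo-tang low), 13 (Sagunja-tang high against low), 14 (Samul-tang high against low), 36 (Palmul-tang high against low), 4 (Samul-tang high against Sagunja-tang high) and 1 (Palmul-tang high minus low against Samul-tang high minus low). With the fit limited to the groups compared, the counts that moved by over 1.5 times were 28 (Astragali Radix medium), 0 (Astragali Radix low), 33 (Cinnamomi Cortex high), 26 (Cinnamomi Cortex medium), 27 (Cinnamomi Cortex low), 24 (Sagunja-tang medium), 27 (Sagunja-tang low), 29 (Samul-tang medium), 27 (Samul-tang low), 35 (Palmul-tang medium), 32 (Palmul-tang low), 39 (Sibjeondaebo-tang medium), 36 (Sibjeondaebo-tang low), 28 (Sagunja-tang high against low), 26 (Samul-tang high against low), 43 (Palmul-tang high against low), 4 (Samul-tang high against Sagunja-tang high), 7 (Sibjeondaebo-tang high against Palmul-tang high), 5 (Palmul-tang high minus low against Sagunja-tang high minus low) and 1 (Palmul-tang high minus low against Samul-tang high minus low). Without replicates 1 and 2 of the low dose of Astragali Radix, the counts that moved by over 1.5 times were 26 (Astragali Radix medium), 27 (Cinnamomi Cortex low), 23 (Sagunja-tang medium), 31 (Samul-tang medium), 25 (Samul-tang low), 33 (Palmul-tang medium), 29 (Palmul-tang low), 37 (Sibjeondaebo-tang medium), 36 (Sibjeondaebo-tang low), 24 (Sagunja-tang high against low), 25 (Samul-tang high against low), 43 (Palmul-tang high against low), 34 (Sibjeondaebo-tang high against low), 5 (Samul-tang high against Sagunja-tang high), 8 (Sibjeondaebo-tang high against Palmul-tang high), 3 (Palmul-tang high minus low against Sagunja-tang high minus low) and 1 (Palmul-tang high minus low against Samul-tang high minus low). With no filter on low counts, the counts that moved by over 1.5 times were 9 (Sagunja-tang medium), 8 (Samul-tang low), 0 (Sagunja-tang high against low) and 1 (Samul-tang high against Sagunja-tang high). By DESeq2, the counts that moved by over 1.5 times were 23 (Sibjeondaebo-tang medium), 7 (Samul-tang high against low) and 4 (Sibjeondaebo-tang high against Palmul-tang high). Leaving out 1 library at a time, the counts ran from 8 to 11 (Astragali Radix medium), 11 to 15 (Cinnamomi Cortex high), 8 to 11 (Cinnamomi Cortex medium), 9 to 12 (Cinnamomi Cortex low), 5 to 9 (Sagunja-tang medium), 8 to 13 (Sagunja-tang low), 11 to 15 (Samul-tang medium), 6 to 10 (Samul-tang low), 9 to 15 (Palmul-tang low), 7 to 9 (Sibjeondaebo-tang medium), 12 to 18 (Sibjeondaebo-tang low), 1 to 2 (Sagunja-tang high against low), 0 to 2 (Samul-tang high against low), 7 to 16 (Palmul-tang high against low) and 0 to 2 (Sibjeondaebo-tang high against Palmul-tang high). The share of all genes called lower moved as well. For Cinnamomi Cortex high it was 8.56% in the fit to all groups and 20.8% with only the groups compared. For Astragali Radix low it was 19.2% and 0%. In the fit to the groups compared, Samul-tang high against Sagunja-tang high had 4 lower and 2 higher, with 8.18% and 8.61% of all genes. Sibjeondaebo-tang high against Palmul-tang high had 7 lower and 10 higher, with 9.63% and 10%. The cause of these moves was not tested.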

Other observations

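Rehmanniae Radix Preparata, one of the herbs of Samul-tang, had 1 library per dose, so its values carry no test. They are log2 ratios to the vehicle mean with a pseudocount of 0.5 CPM. The median ratio of the 48 genes was -0.20 at the high, -0.12 at the medium and -0.15 at the low dose. At the high dose 39 genes lay below every vehicle library and 2 above, with a range from -0.65 (MYBL2) to 0.20 (MAD2L1), where 33.3% of all genes tested lay below and 37.6% above. At the medium dose 31 lay below and 9 above, from -0.57 (PLK1) to 0.38 (MAD2L1), with 33.1 and 36.6% of all genes. At the low dose 38 lay below and 4 above, from -0.51 (PLK1) to 0.21 (MAD2L1), with 33.7 and 35.9% of all genes. The summed level of the set was 5091, 5397 and 5268 CPM from high to low dose.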
